A study of Homo sapiens with 6 samples.

Results

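Secreted inflammatory cytokines and chemokines were followed here through 10 genes: the cytokines IL6, IL1A, IL1B, IL11 and CSF2, and the chemokines CXCL1, CXCL2, CXCL3, CXCL8 and CCL2. They were taken by gene symbol from the table of read counts and the table of FPKM (the count scaled to gene length and library total), which list 16279 genes, and all 10 were found. The filter on low counts kept 8 of the 10 among the 13311 genes tested, while IL1A and CSF2 did not pass it. In the untreated cells CCL2 stood far above the other 9 genes. In the treated cells CCL2 was lower in all 3 libraries, and the other 7 tested genes were lowest in the first treated library and highest in the third, which was above every untreated library, while the second was above all untreated libraries for CXCL1, CXCL3 and IL1B and within their range for the other 4, and none of the tested genes passed the adjusted threshold of edgeR.

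The RNA came from 12Z, an established human endometriotic epithelial cell line grown from endometriosis lesions, and the study asked how the adipokine chemerin acts on endometrial epithelial cells. The NC group (n = 3) was 12Z cells without treatment. The rhChemerin group (n = 3) was 12Z cells given recombinant human chemerin, which the methods describe as rhChem157S at 10 ng/mL for 48 h. The labels name no vehicle for the NC group and no other treatment, both groups are the same single line, and the labels call the libraries biological replicates without saying whether they were grown as separate cultures, so that the p-values measure only the spread between these libraries.

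Pro-inflammatory cytokines and chemokines are made on demand. NF-κB, a transcription factor held in the cytoplasm by IκB proteins until a stimulus arrives, enters the nucleus and binds κB sites near the start of their genes, and AP-1 and C/EBP factors often act beside it. The transcripts are then removed quickly, because AU-rich elements in their 3′ UTRs, built on the pentamer AUUUA, are bound by proteins that bring in the decay machinery. In the endometrium these factors recruit neutrophils and monocytes at menstruation and in endometriosis lesions, and IL11 takes part in decidualisation.

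The κB sites of the promoters are shown first. Of the 10 genes, 9 had an entry in the RefSeq promoter table, which gives 250 bases before and 50 bases after a start site on GRCh38.p14; CCL2 had none. The motif searched was GGNNTTTCC, on both strands, and it occurred in 5 of the 9 genes with an entry and in 6.26% of all 35116 promoters of the same length. The promoters of CXCL1, CXCL2 and CXCL3 were 83.6% to 87.0% identical to each other, so their matches do not count as independent. The matches are in capitals within windows read 5′ to 3′ on the strand of the gene.
CXCL1 (chr4:73869295-73869368, plus strand): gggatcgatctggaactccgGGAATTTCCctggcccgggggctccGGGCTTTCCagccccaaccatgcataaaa
CXCL2 (chr4:74099220-74099292, minus strand): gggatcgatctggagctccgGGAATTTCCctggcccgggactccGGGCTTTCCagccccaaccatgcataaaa
CXCL3 (chr4:74038714-74038787, minus strand): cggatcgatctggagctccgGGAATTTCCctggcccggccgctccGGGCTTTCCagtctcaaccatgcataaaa
CXCL8 (chr4:73740458-73740506, plus strand): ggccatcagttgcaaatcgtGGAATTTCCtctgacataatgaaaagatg
IL6 (chr7:22727108-22727156, plus strand): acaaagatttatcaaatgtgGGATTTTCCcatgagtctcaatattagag

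CXCL1, CXCL2 and CXCL3 each carried the same pair of matches, with the first base of GGAATTTCC at -78, -77 and -78 from the start site and that of GGGCTTTCC at -53 in all of them. CXCL8 held the same GGAATTTCC at -91, and IL6 held GGATTTTCC at -72. The AP-1 motif TGANTCA was found in CXCL8, IL11 and IL1A, that is in 3 of 9 genes and in 7.71% of all promoters. TATAAA was found in CXCL8 with its first base at -31, and in IL1A at -239 from the first listed start site only. It occurred in 11.53% of all promoters. A match describes letters in the window and is no measure of binding. IL1A, IL1B, IL11 and CSF2 held no match to the κB motif in this window, and other forms of κB site were not searched. Whether the matches are connected with the values was not tested.

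The second set of sequences is from the 3′ UTRs, 30 bases each around the densest AU-rich stretch of the transcript in GENCODE release 29, with ATTTA in capitals and T standing for U. They are shown for the 2 genes with the most ATTTA per kb among all 10, for 2 CXCL genes and for CCL2, the gene with the fewest.
CSF2: aaaatATTTATTTATTTATTTATTTAagtt
IL6: tatttttaATTTAttaatATTTAaatatgt
CXCL2: cttctATTTATTTATTTATTTATTTAtttg
CXCL8: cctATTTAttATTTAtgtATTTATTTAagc
CCL2: aatgttaattcttATTTAagttattgatgt

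All 10 genes held ATTTA in the 3′ UTR, against 66.0% of 18460 genes with a 3′ UTR. The density was 25.16 per kb in CSF2, 13.99 in IL6, 13.87 in CXCL2 and 10.4 in CXCL3. It was 9.84 in IL1B, 7.19 in CXCL8, 7.08 in CXCL1, 5.56 in IL11 and 4.34 in IL1A, and CCL2 was the least dense at 2.66. The median gene had 1.48 per kb, and 8 of the 10 genes but only 9.8% of all genes were above 5 per kb. IL1A and CCL2 were the pair under that level, and whether this feature is connected with the values was not tested.

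The libraries held between 35430881 and 38341643 counts, so that 1 count was worth 0.0261 to 0.0282 CPM (the count scaled to the library total alone). At an adjusted p under 0.05, edgeR called 4 of 13311 genes (0.0301%) and DESeq2 called 1319 of 14066 genes (9.38%). Before any group comparison, the third treated library stood apart from the others. It was the highest of the 6 libraries in 34.1% of the tested genes and the lowest in 32.2%, whereas each other library was the highest in 10.1% to 16.2% and the lowest in 10.7% to 17.6%. Leaving out the first treated library raised the count of genes called by edgeR more (844) than leaving out the third (415). The plot of fold changes shows the tested genes in these separate fits, each with a single library left out. The epithelial keratins KRT8 (748 to 966 FPKM), KRT18 and KRT19 were abundant, but the epithelial adhesion genes EPCAM and CDH1 were under 1 FPKM in every library. The 9 fibroblast and stromal markers were also expressed and summed to 2273, 2097 and 1782 FPKM in NC and 2464, 1870 and 1235 FPKM in rhChemerin. COL1A1, a fibroblast collagen, was at 945 FPKM or more in 5 of the 6 libraries and at 728 FPKM in the third rhChemerin library. Of 11 leukocyte markers, the pan-leukocyte gene PTPRC stayed at or under 0.0535 FPKM, whereas CD14 was at 36.9 to 51.5 FPKM in NC and 6.64 to 21.2 FPKM in rhChemerin. The 9 leukocyte markers listed summed to 123 to 173 FPKM in NC and 93.6 to 137 FPKM in rhChemerin, and the 7 endothelial markers to 1.61 to 2.06 and 0.991 to 1.42 FPKM, with no marker of either set at 0 in all libraries. Their part in the cytokine values was not tested.

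In the untreated cells the levels of the 10 genes differed widely. CCL2, which draws monocytes, had a mean of 34.7 ± 10.2 FPKM (SD, n = 3). IL1B at 3.64 ± 1.34, IL11 at 3.52 ± 1.70, CXCL2 at 3.21 ± 0.863, CXCL1 at 2.57 ± 0.786 and CXCL8 at 1.99 ± 0.845 FPKM followed (SD, n = 3 each). Each of these 5 overlapped with its neighbours in that order, while CCL2 did not overlap with IL1B. CXCL3 at 0.283 ± 0.205, IL6 at 0.168 ± 0.0602 and IL1A at 0.131 ± 0.0548 FPKM formed a lower group with overlapping neighbours, which did not overlap with CXCL8. CSF2 had no count in any NC library, which allows up to 0.0847 CPM at 3 counts in the smallest of them. The same order was obtained after the FPKM were rescaled to TPM.

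In the treated cells CCL2 remained the highest on average, but CXCL1 and CXCL8 took the next places in the order of means. The rhChemerin means were 16.2 ± 6.69 FPKM for CCL2, 9.19 ± 10.8 for CXCL1, 8.19 ± 11.6 for CXCL8, 7.19 ± 6.57 for IL1B and 5.25 ± 3.95 for IL11 (SD, n = 3). They were 3.60 ± 1.91 FPKM for CXCL2, 0.836 ± 0.877 for CXCL3, 0.343 ± 0.405 for IL6 and 0.111 ± 0.0644 for IL1A (SD, n = 3). For CXCL1, CXCL3, CXCL8 and IL6 the SD was larger than the mean.

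**Figure D1:**
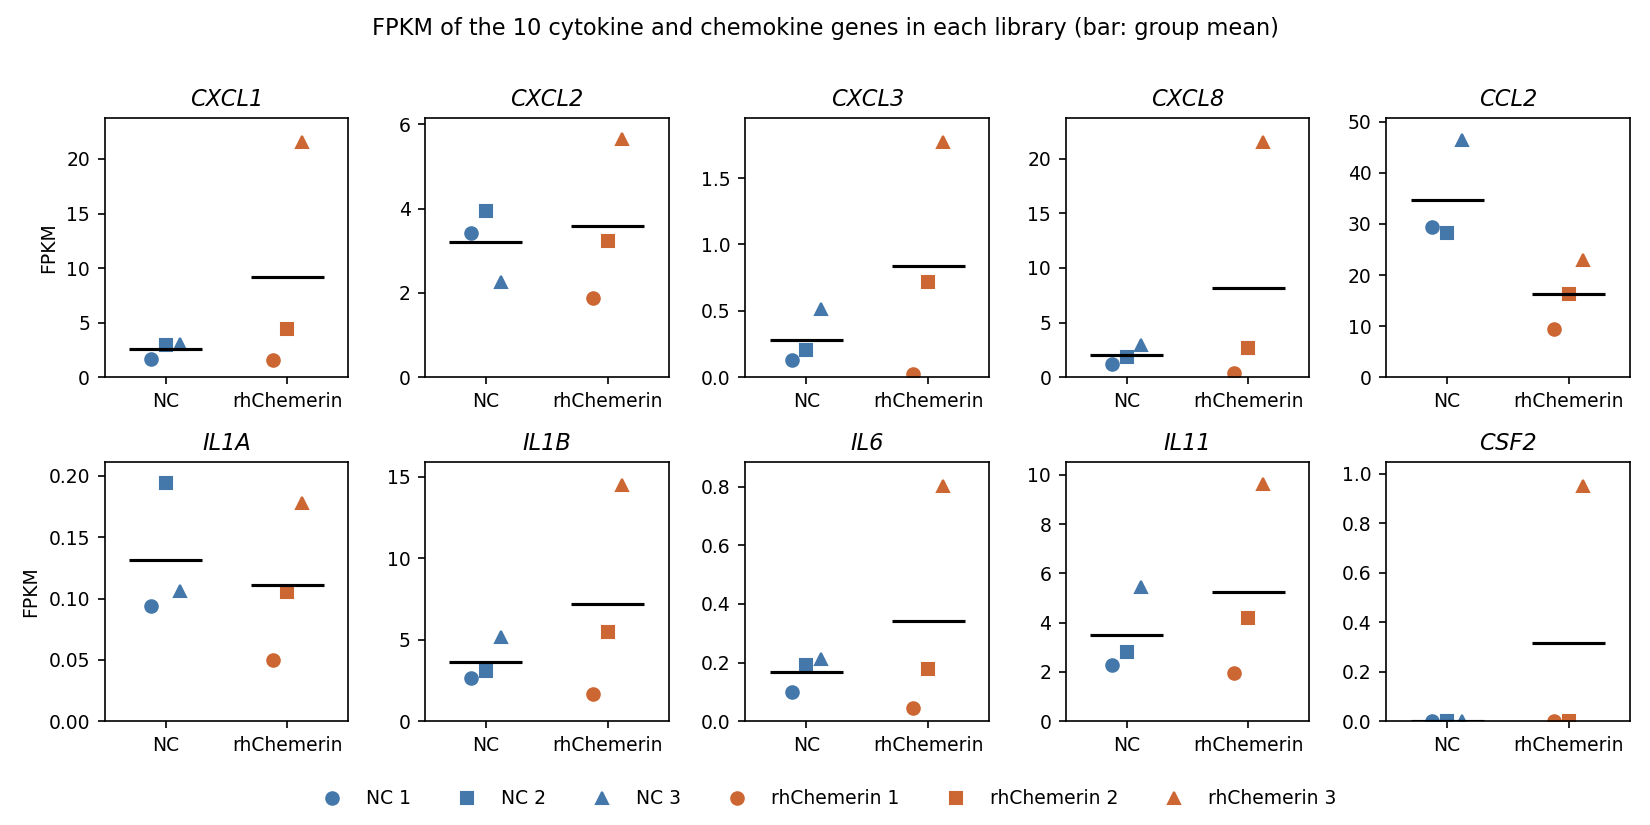
FPKM of each of the 10 genes (y axis, one scale per gene) in the 3 NC and 3 rhChemerin libraries (x axis), with points for libraries and bars for group means. The third rhChemerin library is the highest point in 8 of the 10 panels, and CCL2 is the panel in which all 3 rhChemerin points, at 9.54 to 22.9 FPKM, lie under all 3 NC points.

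CCL2 (chr17:34255218-34257203 on GRCh38, plus strand), whose product binds CCR2 on monocytes, was measured at 29.4, 28.3 and 46.4 FPKM in NC libraries 1 to 3. It was at 9.54, 16.2 and 22.9 FPKM in rhChemerin libraries 1 to 3, on 271 to 1240 counts in all 6 libraries. The groups did not overlap, and the mean was 0.467 times the NC mean. On log2 CPM with edgeR's TMM scaling, 16.0% of the 13311 tested genes had all rhChemerin libraries under all NC libraries. In 16.5% they were all above, and CCL2 was the only one of the 8 tested genes in either set. The log2 fold change was -0.95 (SE 0.36), with an adjusted p of 0.184 by edgeR's quasi-likelihood test (unadjusted p = 0.0319) and 0.0594 by DESeq2. CD14, a monocyte marker, was also lower without overlap (log2 fold change -1.49, adjusted p = 0.1 by edgeR and 0.000422 by DESeq2) while PTPRC was near 0 in both groups. CD68, the most abundant of the leukocyte markers, overlapped at 70.0 to 134 FPKM in NC and 80.2 to 121 FPKM in rhChemerin (0.11, SE 0.26). The part of these markers in the CCL2 values was not tested. Fewer cells making a transcript and less of it per cell cannot be told apart in such bulk libraries.

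Leaving out the third rhChemerin library moved CCL2 to a log2 fold change of -1.35 (SE 0.30), with an adjusted p of 0.0608 by edgeR and 0.000158 by DESeq2. In that DESeq2 fit 1737 of 13345 genes (13%) were called, and CCL2 was the only one of the 7 cytokine genes with an adjusted p. Without the first rhChemerin library the log2 fold change was -0.66 (SE 0.28, adjusted p = 0.159 by edgeR). CCL2 was thus lower in each of these fits, and its adjusted p crossed the threshold only with DESeq2 and without the third treated library.

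CXCL8 (chr4:73740506-73743716, plus strand), the main neutrophil chemoattractant, carries the single κB match shown above. It was at 1.24, 1.84 and 2.91 FPKM in the NC libraries, and at 0.349, 2.72 and 21.5 FPKM in the rhChemerin libraries. The corresponding counts were 72, 111 and 172 in NC and 22, 162 and 1321 in rhChemerin. The first treated library was thus under all NC libraries, the second was within their range and the third was 7.40 times the highest of the other 5. Between the treated libraries the highest was 61.6 times the lowest, against 2.35 times in NC. The log2 fold change of 2.24 (SE 1.21) had an adjusted p of 0.305 by edgeR and 0.320 by DESeq2, and it was -0.29 (SE 0.75) without the third treated library.

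CXCL1 (chr4:73869393-73871242, plus strand), a ligand of CXCR2 on neutrophils, showed a similar picture at the upper end. Its FPKM were 1.66, 2.99 and 3.05 in NC and 1.60, 4.41 and 21.6 in rhChemerin. The lowest and the 2 highest of the 6 values all came from treated libraries, and the third treated library was 4.89 times the highest of the others. The log2 fold change was 2.03 (SE 0.89, adjusted p = 0.227 by edgeR and 0.206 by DESeq2), and 0.32 (SE 0.47) without the third treated library.

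CXCL3 (chr4:74036589-74038807, minus strand) and CXCL2 (chr4:74097035-74099293, minus strand) encode close relatives of CXCL1 that also bind CXCR2. CXCL3 was low, at 5, 8 and 20 counts in NC and 1, 28 and 71 counts in rhChemerin, or 0.131, 0.202 and 0.516 against 0.0243, 0.718 and 1.77 FPKM. Here the second treated library and the third were both above all NC libraries and the first rested on a single count. Its log2 fold change was 1.73 (SE 1.13, adjusted p = 0.385 by edgeR), and 0.47 (SE 1.10) without the third treated library.

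CXCL2 varied the least of the CXCL genes. It was at 3.42, 3.95 and 2.26 FPKM in NC and at 1.89, 3.24 and 5.66 FPKM in rhChemerin. The groups overlapped widely, and unlike the other tested genes it was lower in the third NC library than in the first (log2 difference -0.60). Its log2 fold change was 0.32 (SE 0.45, adjusted p = 0.684 by edgeR), and -0.24 (SE 0.35) without the third treated library.

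The coding sequences of CXCL1, CXCL2 and CXCL3 were 90.7% to 94.4% identical to each other and 61.8% to 64.4% identical to that of CXCL8, so that reads could be assigned to the wrong one of the 3. No stretch of 150 bases, the read length, was shared exactly between their transcripts. With the 3 genes summed, the counts were 209, 299 and 240 in NC and 154, 347 and 1254 in rhChemerin. The sum thus kept the order of the treated libraries seen in each gene, with a log2 fold change of 1.37 (SE 0.71, adjusted p = 0.288 by edgeR). The 4 CXCL genes lie within 358.8 kb on chromosome 4, in a run that also holds CXCL6, CXCL5, PF4, PF4V1 and PPBP. CXCL6, another neutrophil chemoattractant, was at 2.59, 2.55 and 3.18 FPKM in NC and at 2.19, 5.32 and 9.57 FPKM in rhChemerin, with a log2 fold change of 1.20 (SE 0.51, adjusted p = 0.216 by edgeR). CXCL5, also a ligand of CXCR2, was at 0.0232, 0.0558 and 0.330 FPKM in NC and 0.171, 0.0792 and 0.143 FPKM in rhChemerin (0.08, SE 0.91), without that order.

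IL1B (chr2:112829751-112836903, minus strand) and IL1A (chr2:112773915-112784590, minus strand) encode the 2 agonists of the IL-1 receptor. IL1B, which needs cleavage by caspase-1 to become active, was at 2.68, 3.07 and 5.17 FPKM in NC and at 1.66, 5.47 and 14.5 FPKM in rhChemerin. The first treated library was under and the other 2 were above all NC libraries. The log2 fold change was 1.16 (SE 0.71, adjusted p = 0.358 by edgeR and 0.435 by DESeq2), and 0.06 (SE 0.50) without the third treated library.

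IL1A, which is active as made and acts as an alarm signal when cells are damaged, was close to the limit of detection. It had 7, 15 and 8 counts in NC and 4, 8 and 14 counts in rhChemerin, or 0.0939, 0.194 and 0.106 against 0.0496, 0.105 and 0.178 FPKM. The treated libraries had the same order as for IL1B, but the highest value was in an NC library, and at this depth a difference was not detectable (DESeq2 log2 fold change -0.09, SE 0.88, adjusted p = 0.964). IL1B exceeded IL1A 15.8 to 49.0 times in FPKM in NC and 33.5 to 81.2 times in rhChemerin.

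IL6 (chr7:22725884-22732002, plus strand) and IL11 (chr19:55364389-55370463, minus strand) signal through the shared receptor chain gp130. IL6, a cytokine of acute inflammation, had only 6, 12 and 13 counts in NC and 3, 11 and 51 counts in rhChemerin. That corresponds to 0.0998, 0.193 and 0.213 FPKM in NC and 0.0461, 0.179 and 0.804 FPKM in rhChemerin, with the third treated library alone outside the NC range on the high side. The log2 fold change was 1.20 (SE 0.97, adjusted p = 0.474 by edgeR), and -0.50 (SE 0.79) without the third treated library. In GENCODE release 29, 474 of the 2069 exon bases of IL6 overlap genes on the opposite strand, and whether the counting used strand is not given in the sources used here.

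IL11, which signals for decidualisation and fibrosis, was better covered. It was at 2.29, 2.80 and 5.46 FPKM in NC and at 1.94, 4.18 and 9.63 FPKM in rhChemerin, on 177 to 856 counts. The second treated library lay within the NC range, the first lay under it and the third above it. The log2 fold change was 0.75 (SE 0.60, adjusted p = 0.475 by edgeR), and -0.11 (SE 0.44) without the third treated library.

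CSF2 (chr5:132073790-132076170, plus strand), the growth factor GM-CSF of granulocytes and macrophages, was counted in 1 library only. It had 0 counts in 5 libraries and 28 counts in the third rhChemerin library (95% exact Poisson interval 18.6 to 40.5, counting error only). These 28 counts were 0.749 CPM, at least 8.84-fold above the level of 3 counts in any NC library. CSF2 also had the transcript with the densest ATTTA pentamers, in the stretch shown above. DESeq2 gave an adjusted p of 0.213, as 2 of the 3 treated libraries had no count.

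Read together, the tested genes described above spread widely within the treated group, and CCL2 alone had groups that did not overlap. On log2 CPM (prior count 2), the third minus the first rhChemerin library was 5.97 for CXCL8, 4.75 for CXCL3, 3.87 for CXCL1 and 3.57 for IL6. It was 3.25 for IL1B, 2.45 for IL11, 1.71 for CXCL2 and 1.41 for CCL2. Over all 13311 genes the median of this difference was 0.00 with 95% of genes between -1.89 and 1.49, and CXCL8, CXCL3, CXCL1, IL6 and IL1B ranked 5, 11, 26, 32 and 43 from the top. For IL6 and CXCL3 the size depends on the prior count, since the first treated library had 3 and 1 counts.

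All 8 tested genes, CCL2 included, were highest in the third and lowest in the first of the treated libraries, an order found in 28.6% of all genes. A difference of over 4-fold between these 2 libraries was found in 185 genes, or 1.39% of those tested, and in 6 of the 8 (all but CXCL2 and CCL2). In 7 of the 8, all but CCL2, the third treated library was the highest of all 6, against 34.1% of all genes. The third minus the first NC library was positive for 7 of the 8 genes, at 0.64 to 1.62, and -0.60 for CXCL2. The wider spread was thus in the treated group. The fibroblast and stromal markers ran the opposite way over the same libraries: 8 of the 9 were highest in the first, intermediate in the second and lowest in the third treated library, and PDGFRA alone was not. The share of all genes with this falling order was not computed. The third treated library was the lowest of all 6 in 32.2% of the tested genes, so the order is not particular to these markers. COL3A1 was at 764, 499 and 271 FPKM and PDGFRB at 19.8, 10.9 and 5.52 FPKM in rhChemerin libraries 1 to 3. In NC libraries 1 to 3 they were at 736, 648 and 465 FPKM and at 21.2, 20.8 and 16.6 FPKM, so they fell there too. DCN, LUM, COL1A1 and COL1A2 also fell over NC libraries 1 to 3, while THY1, POSTN and PDGFRA did not. The part of this marker pattern in the cytokine values was not tested.

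**Figure D2:**
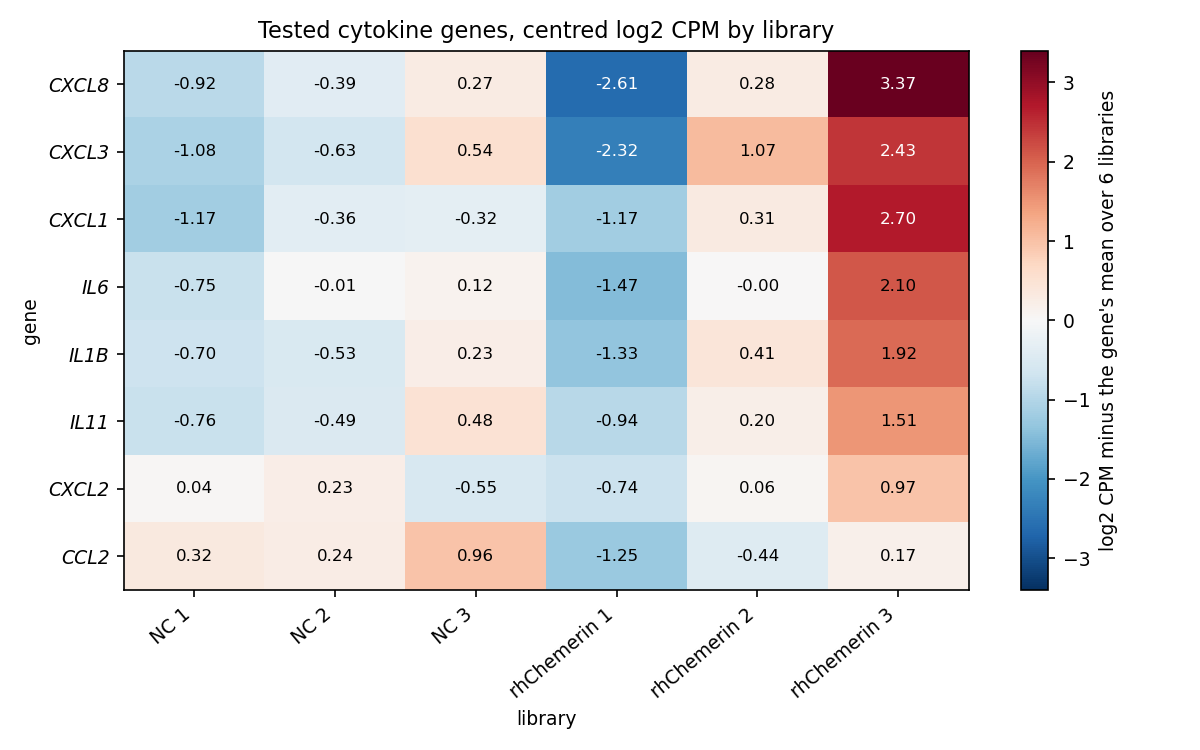
Log2 CPM of the 8 tested genes (rows) in the 6 libraries (columns), minus each gene's mean over the 6 libraries, with colour and printed value giving the same quantity. CXCL8 runs from -2.61 in the first to 3.37 in the third rhChemerin library, while CCL2 is highest in the third NC library at 0.96.

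**Figure D3:**
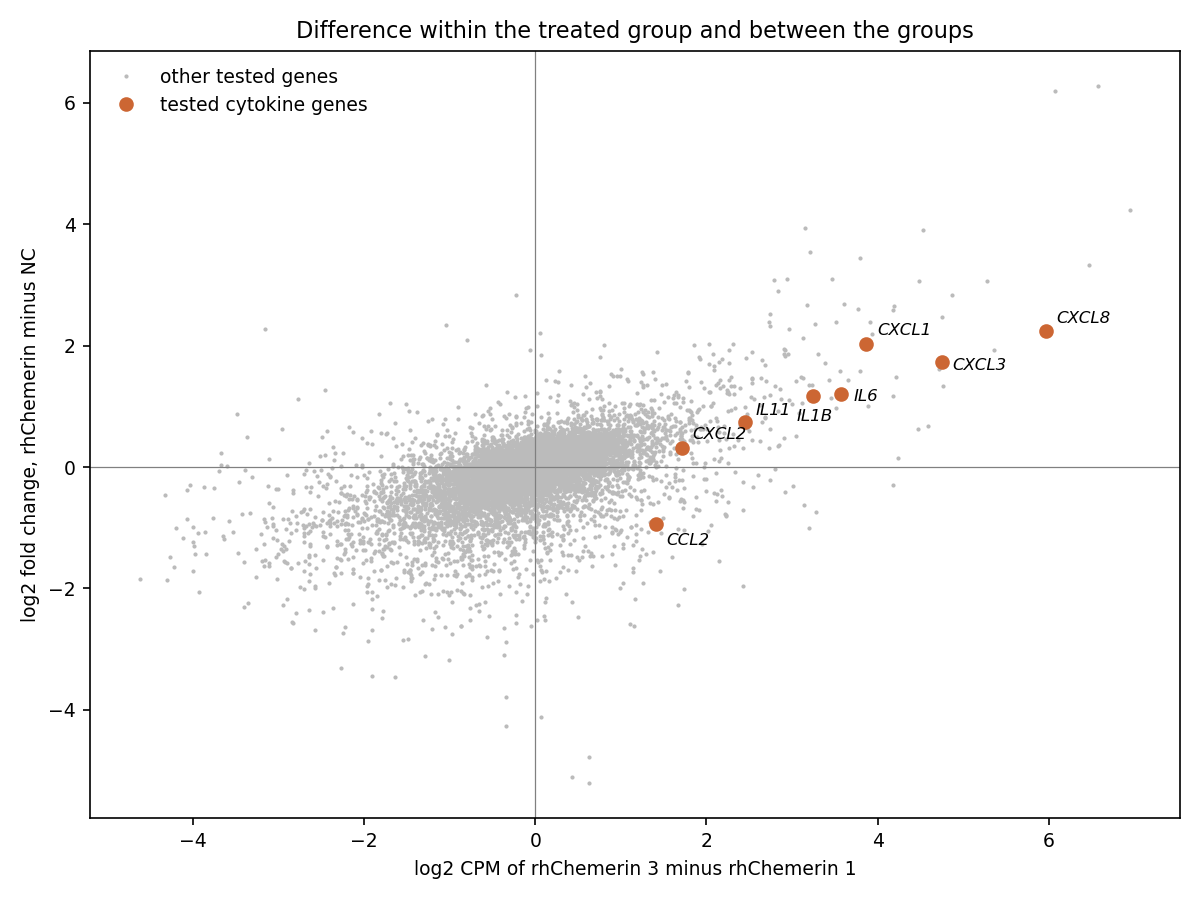
Log2 CPM of the third minus the first rhChemerin library (x axis) against the edgeR log2 fold change of rhChemerin over NC (y axis), with grey points for all tested genes and orange points for the 8 tested cytokine genes. All 8 lie right of 0 on the x axis, from 1.41 for CCL2 to 5.97 for CXCL8, and CCL2 alone lies under 0 on the y axis.

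The mix of transcripts for these secreted factors differed between libraries as well as their sum. These are RNA values, and no secreted protein enters them. The summed FPKM of the 10 genes was 41.0, 43.6 and 66.1 in NC and 17.1, 37.2 and 99.4 in rhChemerin. The treated libraries held both the lowest and the highest sum. CCL2 made up 71.7%, 65.0% and 70.2% of the sum in NC and 55.8%, 43.5% and 23.0% in rhChemerin, so that the groups did not overlap in this share. The share of CXCL8 was 3.02%, 4.22% and 4.40% in NC and 2.04%, 7.30% and 21.6% in rhChemerin. In FPKM, CCL2 exceeded CXCL8 by 15.4 to 23.8 times in NC, and by 27.3, 5.96 and 1.07 times in rhChemerin libraries 1 to 3. The ratio of CCL2 to CXCL8 transcripts was therefore outside the NC range in all 3 treated libraries, above it in the first and under it in the other 2.

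**Figure D4:**
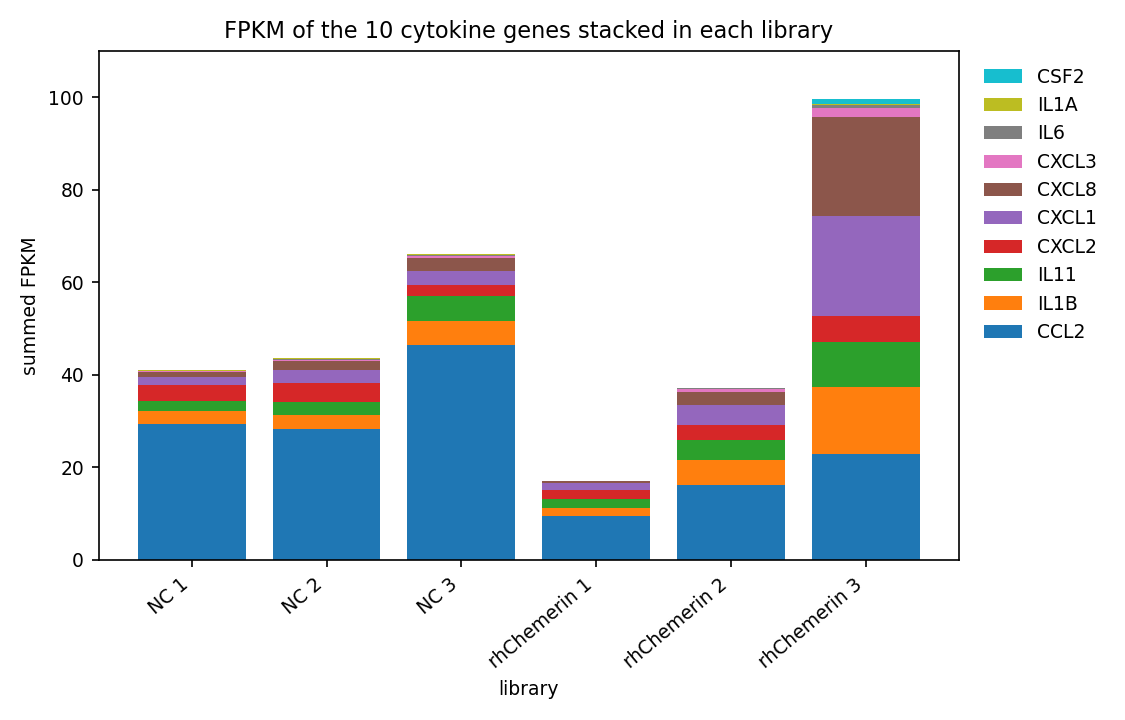
FPKM of the 10 genes stacked in each library (y axis, summed FPKM), with the libraries on the x axis. CCL2 fills most of the bar in all 3 NC libraries and 23.0% of it in the third rhChemerin library, whose bar reaches 99.4 FPKM.

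In the group comparison, 7 of the 8 tested genes had a positive and 1 had a negative log2 fold change, with a median of 1.18 against 0.01 over all tested genes, of which 51.7% were positive. With library size alone as the scaling, the median of all genes moved to -0.12 and CCL2 to -1.10, and none of the 8 genes changed sign. None of the 8 passed an adjusted p of 0.05 by edgeR, where CCL2 was the only one with an unadjusted p under 0.05, against 3038 such genes in all. None of the 10 was called by DESeq2, against 9.38% of all genes.

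The calls depended on which treated library was in the fit. Without the first treated library, DESeq2 called CXCL1 (log2 fold change 2.54, adjusted p = 0.0251), CXCL3 (2.32, 0.0328), CXCL8 (2.81, 0.0468) and IL1B (1.64, 0.0034) higher, that is 4 of the 9 with an adjusted p against 19.4% of all genes. In the same fit by edgeR their adjusted p were 0.0557, 0.0894, 0.0697 and 0.071. Without the third treated library the edgeR values of these 4 were 0.32, 0.47, -0.29 and 0.06, and none was called. Without the third treated library IL6, IL11, CXCL2 and CXCL8 turned negative, while CXCL1, CXCL3 and IL1B stayed positive. In size, each of these values, negative or positive, was smaller than its standard error. CCL2 was the only one of the 8 whose value exceeded its standard error in each of the 3 fits.

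**Figure D5:**
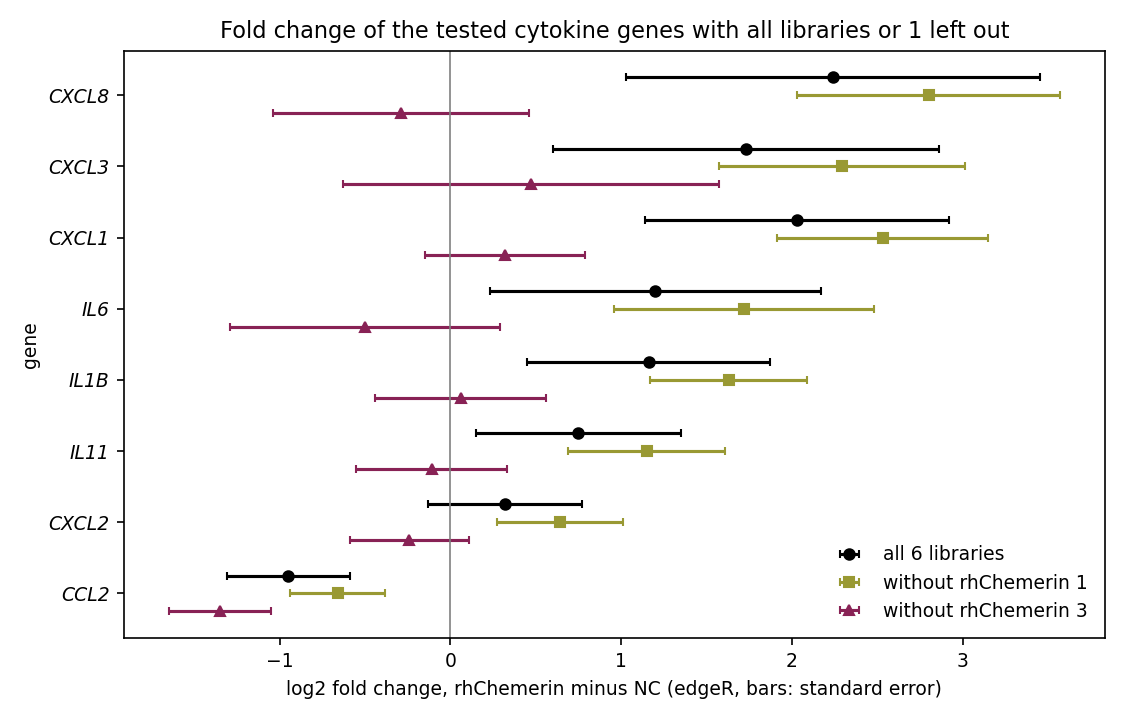
Log2 fold change of rhChemerin over NC (x axis, edgeR, bars are standard errors) for the 8 tested genes (y axis) with all 6 libraries, without the first or without the third rhChemerin library. Without the third library the values of all genes but CCL2 lie between -0.50 and 0.47, and CCL2 is under 0 in all 3 fits.

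The genes whose profile over the 6 libraries was most like the mean of the 8 tested genes were AMIGO2, VDR, F2RL1, CHST2 and SPHK1, by the root mean square difference of centred log2 CPM over 11025 genes of at least 1 FPKM. The differences were 0.14, 0.18, 0.23, 0.26 and 0.27 in that order, against a median of 1.03. F2RL1 encodes the protease-activated receptor PAR2, VDR the vitamin D receptor and SPHK1 an enzyme that makes sphingosine 1-phosphate. F2RL1 was at 2.12, 3.42 and 3.99 FPKM in NC and 1.69, 3.25 and 12.2 FPKM in rhChemerin, and its log2 fold change was 1.03 (SE 0.70, adjusted p = 0.399 by edgeR).

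Of 14 genes for receptors and antagonists of the 10 factors, 11 were in the tables and 6 were tested. Of the 6, 5 had a negative log2 fold change (median -0.47) and none was called by edgeR. DESeq2 called 1 lower, against 9.38% of all genes. CSF2RB, the signalling chain of the GM-CSF receptor, was at 0.654, 0.548 and 0.755 FPKM in NC and 0.242, 0.206 and 0.0539 FPKM in rhChemerin. Its groups did not overlap, with a log2 fold change of -1.86 (SE 0.49, adjusted p = 0.116 by edgeR and 0.00496 by DESeq2). IL6ST, which encodes gp130, was at 41.7 to 55.3 FPKM in NC and 45.4 to 53.1 in rhChemerin, and its log2 fold change of 0.10 turned to -0.04 with library size scaling.

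The specific chains for IL6 and IL11 were far less abundant than gp130. IL6R was at 1.46 to 3.12 FPKM in NC and 0.808 to 1.92 in rhChemerin (log2 fold change -0.77, SE 0.39, adjusted p = 0.278 by edgeR). IL11RA was at 5.4 to 7.0 FPKM in NC and 1.52 to 4.89 in rhChemerin (-0.73, SE 0.36, adjusted p = 0.270 by edgeR). IL1R1, the signalling IL-1 receptor, was at 23.0 to 24.5 FPKM in NC and 15.9 to 21.5 in rhChemerin without overlap (-0.21, SE 0.09, adjusted p = 0.226 by edgeR), and its partner IL1RAP was at 8.67 to 10.2 and 6.25 to 9.63 FPKM (-0.14, SE 0.17). The decoy receptor IL1R2, the antagonist IL1RN, the CXCL8 receptor CXCR1 and the scavenger receptors ACKR1 and ACKR3 were under 1 FPKM in every library and were not tested. CXCR2, CCR2 and CSF2RA were not analysed here.

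Of 30 other cytokines and chemokines, edgeR tested 20 and called none. DESeq2 called 2 higher and 2 lower, against 9.38% of all genes. IL32, a pro-inflammatory cytokine, was at 10.1 to 15.3 FPKM in NC and 5.02 to 5.99 in rhChemerin (log2 fold change -1.06, SE 0.19, adjusted p = 0.0752 by edgeR and 7.15e-05 by DESeq2). CSF1, the macrophage growth factor, was at 48.1 to 50.7 FPKM in NC and 30.5 to 34.4 in rhChemerin (-0.47, SE 0.09, adjusted p = 0.0769 and 0.00195). Both, like CCL2, were lower in the treated cells without overlap between the groups.

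The pair called higher by DESeq2 differed in pattern. IL33, an alarm cytokine of epithelial cells, was at 0.377 to 0.479 FPKM in NC and at 0.317, 2.84 and 6.65 FPKM in rhChemerin (3.06, SE 0.93, adjusted p = 0.135 by edgeR and 0.0437 by DESeq2), with the same order of treated libraries as the 8 genes. CXCL12, a stromal chemokine that binds CXCR4, ran the other way, at 21.4 to 30.0 FPKM in NC and 44.6, 34.2 and 28.9 FPKM in rhChemerin (0.68, SE 0.18, adjusted p = 0.111 and 0.011). MIF, the most abundant of the list at 764 to 900 FPKM, had a log2 fold change of 0.21 (SE 0.11, adjusted p = 0.283 by edgeR).

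Among 16 NF-κB and C/EBP factors and feedback genes, all tested, edgeR called none and DESeq2 called 2 lower, against 9.38% of all genes. These were the IκB genes NFKBIA and NFKBIE, inhibitors of NF-κB that are also its targets. NFKBIA was at 47.6 to 50.3 FPKM in NC and 24.7 to 33.1 in rhChemerin (-0.61, SE 0.14, adjusted p = 0.0948 by edgeR and 0.0045 by DESeq2), and NFKBIE at 10.6 to 12.6 and 6.25 to 7.36 FPKM (-0.57, SE 0.13, adjusted p = 0.0954 and 0.00726). REL, an NF-κB subunit, was at 2.78 to 3.38 FPKM in NC and 1.75 to 2.35 in rhChemerin (-0.41, SE 0.13, adjusted p = 0.140 by edgeR and 0.0645 by DESeq2). All 3 lay under the NC range in each treated library, the third included. Of the 16 genes, 8 had a positive and 8 a negative log2 fold change. On log2 CPM with edgeR's TMM scaling, 5 had all treated libraries under all NC libraries and 1 had them all above. The shares of all genes were 16.0% and 16.5%.

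The other named genes of this list spread within the treated group. CEBPB was at 74.1 to 79.6 FPKM in NC and 55.1, 63.4 and 95.3 FPKM in rhChemerin, and IER3 at 69.3 to 86.6 and 37.5, 60.7 and 124 FPKM. Their log2 fold changes of 0.05 and 0.07 both turned to -0.09 with library size scaling. CEBPD ran the opposite way, at 120 to 164 FPKM in NC and 149, 89.9 and 31.5 FPKM in rhChemerin (-0.53, SE 0.44). TNFAIP3, an NF-κB target and inhibitor named here after its values were seen, was at 3.58, 4.52 and 6.78 FPKM in NC and 2.65, 8.43 and 28.2 FPKM in rhChemerin, the order of CXCL8 and IL1B (1.59, SE 0.77, adjusted p = 0.264 by edgeR).

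The list of regulators of cytokine mRNA decay held 10 genes, all tested. None was called by edgeR, and DESeq2 called 2 higher, against 9.38% of all genes. On log2 CPM with edgeR's TMM scaling, all treated libraries were above all NC libraries in 5 of the 10, against 16.5% of all genes. On FPKM the groups overlapped for KHSRP, at 94.0 to 97.8 in NC and 96.7 to 113 in rhChemerin. ZFP36, which binds AU-rich elements and speeds decay, was at 17.8 to 20.0 FPKM in NC and 21.1 to 24.4 in rhChemerin (0.42, SE 0.12, adjusted p = 0.123 by edgeR and 0.0413 by DESeq2). HNRNPD, the AU-rich element binding protein AUF1, was at 69.6 to 74.6 and 86.5 to 101 FPKM (0.48, SE 0.12, adjusted p = 0.103 and 0.0109). ELAVL1, the stabilising protein HuR, was at 20.3 to 21.4 and 22.0 to 24.8 FPKM (0.30, SE 0.10, adjusted p = 0.155 by edgeR), KHSRP had a log2 fold change of 0.24 (SE 0.12) and ZFP36L1 one of 0.29 (SE 0.21).

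All 9 genes for the processing and release of IL-1 were tested. None was called by edgeR and DESeq2 called 1 higher, against 9.38% of all genes. CAPN1, a calpain, was at 43.0 to 48.9 FPKM in NC and 53.0 to 60.6 in rhChemerin (0.45, SE 0.11, adjusted p = 0.102 by edgeR and 0.0124 by DESeq2). CAPN2 was at 79.0 to 92.0 FPKM in NC and 74.3, 98.5 and 178 FPKM in rhChemerin (0.62, SE 0.33, adjusted p = 0.295 by edgeR), in the same order of treated libraries as IL1B. The inflammasome sensor NLRP1 was at 4.02 to 4.95 and 1.74 to 3.59 FPKM (-0.57, SE 0.23, adjusted p = 0.207 by edgeR), and CASP4 at 59.4 to 68.1 and 49.3 to 61.5 FPKM (-0.08, SE 0.09).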

How the data were processed

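Total RNA of 12Z cells was sequenced in 3 NC and 3 rhChemerin libraries. The authors trimmed reads with fastp, aligned them with HISAT2 to GRCh38.p13 (per the submitters' processing notes) with HTSeq-count giving reads per gene; the strand setting and annotation release are not given in the sources used here. The deposited counts are not normalized, and the deposited FPKM, made by the authors, equalled count / (fixed gene length × library total) within a tolerance of 0.01 of the value in 76321 of 76321 values with at least 20 counts.

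Groups came from the labels. The main test was edgeR 4.0.16 in R 4.3.3 (TMM, filterByExpr with a minimum count of 10, quasi-likelihood test, Benjamini-Hochberg adjustment over 13311 genes). The alternatives tried were DESeq2 1.42.0 and, on the FPKM, limma 3.58.1 after a log2 transform (pseudocount 1 or 0.1), other scalings and filters, a replicate block, the summed CXCL1 to CXCL3 and each library left out; DESeq2 with a library left out was added after the data were seen. An exact two-sided permutation p cannot be smaller than 0.1 at 3 libraries against 3. In simulated counts of 13311 genes, 200 of them were shifted by a log2 fold change of 2. Of these, edgeR recovered 198 with 9 false calls and DESeq2 195 with 20. The median error was 0.157 by edgeR there, whereas the SE of the tested cytokine genes in the data ran from 0.36 for CCL2 to 1.21 for CXCL8. Recovery at the spread of the cytokine genes was not tested. Deviations from the group mean correlated at 0.24, 0.00 and 0.25 between same-numbered libraries. They correlated at -0.19 between NC 1 and rhChemerin 3 and at -0.31 between NC 3 and rhChemerin 1. The labels do not say whether equal numbers mark paired cultures, and the main test used no pairing.

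The 10 genes and the 5 pathway lists were chosen with earlier results of these data known. The text names the 10 genes, all receptors and antagonists, in each other list the 3 most abundant genes, the 3 with the smallest edgeR p and any gene called, and the 5 genes of most similar profile; CXCL5, CXCL6 and TNFAIP3 were added after their values were seen, as were the marker genes named. Coordinates are from GENCODE release 29, promoters from RefSeq.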

Additional observations from a re-analysis of the deposited data

How the results depend on the processing

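None of the 8 genes tested by edgeR was called under any other scaling, filter, unit or tool on all 6 libraries. The count of all genes called moved from 4 to 1319 with DESeq2, 23 with limma on log2(FPKM + 0.1), 179 with limma on log2(FPKM + 1) and 17 without a filter beyond 1 count. With a library left out, by edgeR or DESeq2, it ran from 0 to 2651, the cytokine genes called from 0 to 4, and the pathway list genes called from 0 to 21, against 0 with all libraries, 10 with DESeq2 and 5 with limma on log2(FPKM + 1). By edgeR alone, 844 genes were called without rhChemerin 1, 415 without rhChemerin 3 and 0 without each of the others. With the replicate number as a block in edgeR, 1 gene was called and none of the 8 cytokine genes was. The labels do not say that equal numbers mark paired libraries. In that fit CCL2 had a log2 fold change of -1.01 (SE 0.19, adjusted p = 0.0781 by edgeR), and IER3 moved to -0.13.

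Leaving out single libraries reversed 8 genes: the log2 fold changes ran from -0.50 to 1.74 for IL6, -0.11 to 1.21 for IL11, -0.24 to 0.65 for CXCL2, -0.29 to 2.81 for CXCL8, -0.03 to 0.20 for IL6ST, -0.29 to 0.03 for IL1RAP, -0.28 to 0.23 for CEBPB and -0.60 to 0.41 for IER3. With library size scaling and with limma at pseudocounts of 1 and 0.1, IL6ST was at -0.04, -0.03 and -0.03, CEBPB at -0.09, -0.13 and -0.13 and IER3 at -0.09, -0.26 and -0.26. The cause was not tested. IL1A and CSF2 had too few counts for edgeR's filter, and IL6 and CXCL3 had 1 to 3 counts in rhChemerin 1.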

Other observations

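CXCL8 was 1 of the 10 genes with the largest difference between rhChemerin 3 and rhChemerin 1, which were listed after the values were seen and not tested. ANGPTL4, a secreted regulator of lipoprotein lipase, led with a log2 CPM difference of 6.95, at 0.346, 1.53 and 2.11 FPKM in NC and 0.534, 1.79 and 62.4 FPKM in rhChemerin. MMP1, a collagenase, differed by 6.57, at 0.172 to 1.90 FPKM in NC and 1.67, 15.8 and 145 FPKM in rhChemerin. HAS2, which makes hyaluronan, differed by 6.08, at 0.020 to 0.268 FPKM in NC and 0.308, 2.04 and 19.4 FPKM in rhChemerin. SERPINB2, the plasminogen activator inhibitor PAI-2, differed by 5.27, at 4.24 to 7.12 FPKM in NC and 2.99, 26.6 and 105 FPKM in rhChemerin. HAS2 was above the NC range in all 3 treated libraries, MMP1 and SERPINB2 in 2 of them and ANGPTL4 in the third alone.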
